A study of Mus musculus with 10 samples.

Results

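Caveolin and membrane repair genes were examined in C2C12 myoblasts after knockdown of *Fndc1*, the gene of a fibronectin type III domain protein. The group was defined by gene symbol and holds 10 of the 55359 genes in the deposited table. They are the caveolins *Cav1*, *Cav2* and *Cav3*, the ferlins *Dysf* and *Myof*, the repair genes *Trim72* and *Ehd2*, and the annexins *Anxa1*, *Anxa2* and *Anxa6*. All 10 were among the 13548 genes that were abundant enough to be tested, with a mean of at least 0.5 FPKM over all libraries. FPKM counts fragments relative to transcript length and library size, so levels of different genes can be set side by side on that scale.

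C2C12 is a mouse myoblast line that fuses into myotubes when serum is lowered. Cells of this line were transfected with 100 nM of an siRNA against *Fndc1* (si-*Fndc1*) or of a control siRNA (si-Control), and each group has 5 libraries. By the sample labels the cells were taken at day 4 of differentiation, and by the design text of the series at 48 h from transfection. Nothing in the labels says that the 5 libraries of a group came from separate cultures, so p-values measure the spread between these libraries, which may be technical.

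Muscle fibres tear at their surface when they contract, and patching such tears is the work of a small set of membrane proteins. Caveolins bend the membrane into flask-shaped caveolae, which serve as a reserve of membrane, and caveolin-3 is the form of muscle. Dysferlin, the product of *Dysf*, and its relative myoferlin are calcium sensors of vesicle fusion, and loss of dysferlin causes a limb-girdle muscular dystrophy. MG53, the product of *Trim72*, brings vesicles to a lesion, EHD2 holds the neck of caveolae, and annexins bind acidic lipids at the torn edge when calcium enters.

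Total counts ran from 66771605 to 75995168 in si-Control and from 56332844 to 72839369 in si-*Fndc1*, and each of the members had at least 1725 counts in each library. *Fndc1* itself was at 26.7, 24.7, 28.7, 29.6 and 29.2 FPKM in si-Control libraries 1 to 5 and at 20.4, 23.5, 20.8, 21.1 and 18.7 FPKM in si-*Fndc1*. The targeted transcript was therefore lower in 5 of 5 knockdown libraries than in any control library, with a ratio of the group means of 0.752. Markers of differentiated myotubes were present, since all 20 were abundant enough to be tested and together summed to 7273 to 7642 FPKM in si-Control and 7691 to 8433 FPKM in si-*Fndc1*. Adipocyte markers (sums of at most 0.0516 FPKM, 5 of 7 at 0 in all libraries) and endothelial markers (at most 0.701 FPKM) were too low to test, and macrophage and blood markers summed to at most 2.45 FPKM. In si-*Fndc1* the hepatocyte list summed to 58.5 to 198 FPKM against 0.0754 to 6.65 FPKM in si-Control. *Alb*, serum albumin, stood at 12.0 to 60.8 FPKM against 0 to 2.83 FPKM. All 14 tested hepatocyte transcripts were higher in si-*Fndc1*, but the abundance filter largely fixed that count. Apart from *Alb*, their means in si-Control were at most 0.351 FPKM, below the mean that the filter required over all libraries. Such transcripts could be tested only where si-*Fndc1* was higher, so the count adds nothing to the sums. The part of these transcripts in the changes of the members was not tested.

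The sequences just upstream of 3 members are given here because they stand for the caveolin of muscle, the repair ligase of muscle and the member whose change passed under every alternative. The windows are the 250 bases before the annotated start in RefSeq (GRCm38.p6), 5′ to 3′, and capitals mark E-boxes, the CANNTG motif to which myogenic bHLH factors such as MyoD bind. They lie at chr6:112459255-112459504 (+) for *Cav3*, chr7:128004128-128004377 (+) for *Trim72* and chr9:69453433-69453682 (+) for *Anxa2*. Gene positions elsewhere in this text are as the authors listed them, with no build named, so they cannot be set against these windows.
Cav3: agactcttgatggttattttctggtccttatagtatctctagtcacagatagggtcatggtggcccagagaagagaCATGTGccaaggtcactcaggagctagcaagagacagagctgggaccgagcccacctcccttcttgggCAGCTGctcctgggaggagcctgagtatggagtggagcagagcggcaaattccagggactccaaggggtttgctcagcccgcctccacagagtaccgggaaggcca
Trim72: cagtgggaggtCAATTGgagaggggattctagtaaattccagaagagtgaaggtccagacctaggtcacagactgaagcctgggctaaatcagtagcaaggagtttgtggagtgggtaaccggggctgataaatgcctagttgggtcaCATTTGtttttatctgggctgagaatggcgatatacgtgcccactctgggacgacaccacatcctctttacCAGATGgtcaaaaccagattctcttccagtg
Anxa2: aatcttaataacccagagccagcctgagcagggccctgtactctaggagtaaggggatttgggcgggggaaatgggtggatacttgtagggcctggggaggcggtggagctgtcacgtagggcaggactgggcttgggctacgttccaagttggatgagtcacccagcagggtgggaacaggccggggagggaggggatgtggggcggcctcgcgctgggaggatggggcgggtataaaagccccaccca
The *Cav3* window holds 2 E-boxes, one of them the palindrome CAGCTG, and the *Trim72* window holds 3, whereas the *Anxa2* window holds none. Windows of this kind were found for 9 of the 10 members, with *Anxa6* the exception, and *Cav1* and *Dysf* had 2 each. A member was counted if any of its windows held a motif, whereas the background counts single windows. By that count 5 of the 9 held an E-box on either strand against 66.2% of 32851 promoter windows. CAGCTG was present in *Cav3* and *Ehd2*, 2 of 9, against 13% of all windows. The MEF2 box and the CArG box were matched in 0 of 9, beside 0.508% and 1.47% of all windows. These letters are a description of the windows and show no binding.

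Among the 10 members, 2 were higher and 3 lower in si-*Fndc1* at an adjusted p under 0.05, *Cav2* and *Anxa2* on the one side and *Dysf*, *Myof* and *Ehd2* on the other. These p-values came from the quasi-likelihood test of edgeR and were adjusted by the Benjamini-Hochberg method over all tested genes, as were all adjusted p-values of fold changes below. That share of 5 in 10 stands beside a background of 34.4% of all tested genes, with 17.3% called higher and 17.2% called lower. The median log2 fold change of the members was -0.08, against 0.00 for all tested genes. The changes were small, from -0.28 to 0.36 on the log2 scale. In bulk RNA, fewer cells of a type and less RNA per cell cannot be told apart.

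**Figure D1:**
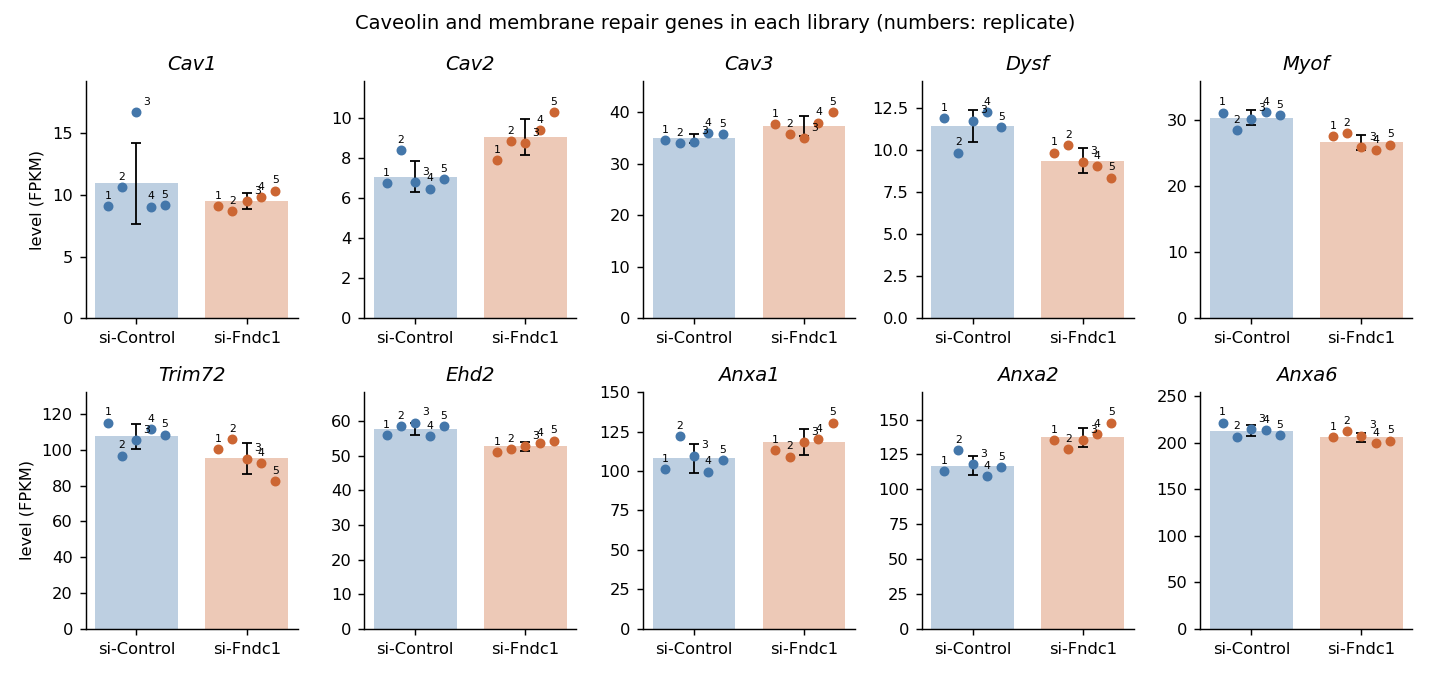
Level of each member in FPKM (vertical axes, from 0) in the 5 si-Control (blue) and 5 si-*Fndc1* (orange) libraries, numbered by replicate, with bars for the mean and error bars for the SD. Only *Myof*, *Ehd2* and *Anxa2* show no overlap between the groups, and for *Cav1* replicate 3 of si-Control stands at 16.7 FPKM.

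Of the 3 caveolins only *Cav2* passed the test. *Cav2*, the caveolin that assembles with caveolin-1 (ENSMUSG00000000058, listed at chr6:17281184-17289114 on the plus strand), was at 6.76, 8.40, 6.79, 6.48 and 6.96 FPKM in si-Control libraries 1 to 5. In si-*Fndc1* libraries 1 to 5 it was at 7.92, 8.87, 8.76, 9.42 and 10.3 FPKM. Only control library 2 reached into the range of the knockdown, and 4 of 5 knockdown libraries lay above every control library. The mean went from 7.08 ± 0.761 to 9.06 ± 0.883 FPKM (SD, n = 5; exact permutation test, two-sided, p = 0.0159). *Cav2* rose by 0.36 on the log2 scale (SE 0.09, adjusted p = 0.00781), which was the largest rise among the members.

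*Cav1*, the main structural protein of caveolae outside striated muscle, neighbours *Cav2* on the same strand (ENSMUSG00000007655, chr6:17306334-17341323). Its si-Control values were 9.08, 10.7, 16.7, 9.07 and 9.21 FPKM, and its si-*Fndc1* values were 9.11, 8.69, 9.52, 9.82 and 10.4 FPKM. A single control library, replicate 3, stood apart from the other 9, which lay between 8.69 and 10.7 FPKM. The log2 fold change of -0.20 (SE 0.16, 95% interval -0.55 to 0.16) did not pass the test (adjusted p = 0.372). Without control library 3 it was 0.01 (adjusted p = 0.960), so the value rests on that library. Over the 10 libraries the genes most like *Cav1* were *Rpl10-ps3*, *Mir1199* and *Gm23458*, with Pearson's r of log2 CPM (counts relative to library size) of 0.940, 0.929 and 0.888, a likeness that the same library can set.

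*Cav3*, the muscle caveolin (ENSMUSG00000062694, chr6:112436466-112449833, plus strand), was the most abundant of the caveolins. It held 66.2% ± 4.41 of their summed FPKM in si-Control and 66.8% ± 1.28 in si-*Fndc1* (SD, n = 5). Its level was 34.6, 34.1, 34.3, 36 and 35.8 FPKM in si-Control and 37.8, 35.7, 35.1, 38.0 and 40.1 FPKM in si-*Fndc1*. Only 3 of 5 knockdown libraries exceeded all controls, and the lower 2 fell within the control range. The log2 fold change of 0.10 (SE 0.04, 95% interval 0.01 to 0.19) did not pass the test (adjusted p = 0.0754). The 22 alternative settings put it between 0.06 and 0.12, and it passed in none of them. The genes most like *Cav3* over the 10 libraries were *Entr1*, *Depdc1a* and *Ppm1d*, with r of 0.946, 0.946 and 0.934.

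The summed level of the 3 caveolins was 53.0 ± 2.89 FPKM in si-Control and 55.9 ± 3.16 FPKM in si-*Fndc1*. Within that sum the share of *Cav2* went from 13.4% ± 1.52 to 16.2% ± 0.995 and that of *Cav1* from 20.5% ± 4.84 to 17% ± 0.586. The ranges of the groups overlapped for all 3 shares.

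Both ferlins fell. *Dysf* (ENSMUSG00000033788, chr6:83985572-84188042, plus strand) was at 11.9, 9.84, 11.7, 12.2 and 11.4 FPKM in si-Control and at 9.83, 10.3, 9.30, 9.01 and 8.35 FPKM in si-*Fndc1*. Control library 2 was again the exception among its group, and knockdown library 2 was the only one above it. The mean fell from 11.4 ± 0.937 to 9.36 ± 0.745 FPKM (SD, n = 5; exact permutation test, two-sided, p = 0.0159), and the log2 fold change was -0.28 (SE 0.07, adjusted p = 0.00976), the largest fall among the members.

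*Myof* (ENSMUSG00000048612, chr19:37887484-38032025, minus strand), which is linked to myoblast fusion and is low in mature fibres, was the more abundant ferlin in these cells. It was at 31.1, 28.5, 30.2, 31.2 and 30.7 FPKM in si-Control and at 27.6, 28.1, 25.9, 25.4 and 26.3 FPKM in si-*Fndc1*. The groups did not overlap, although control library 2 and knockdown library 2 were only 0.42 FPKM apart. The log2 fold change was -0.18 (SE 0.04, adjusted p = 0.00367). Relative to each other the ferlins stayed close, since *Dysf* made up 27.3% ± 1.01 of their sum in si-Control and 26% ± 1.06 in si-*Fndc1*, with overlapping ranges.

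*Trim72*, the muscle ubiquitin ligase MG53 (ENSMUSG00000042828, chr7:127603121-127610205, plus strand), was close to *Anxa1* and *Anxa2* in level in si-Control, with overlapping ranges, and below them in si-*Fndc1*. Its level was 115, 96.7, 105, 112 and 108 FPKM in si-Control and 100.1, 106, 95, 92.4 and 82.6 FPKM in si-*Fndc1*. Knockdown library 5 was the lowest of all 10, and 3 of 5 knockdown libraries lay below every control. The log2 fold change of -0.17 (SE 0.07, 95% interval -0.32 to -0.02) did not pass the test (adjusted p = 0.0814). It passed without control library 2 (adjusted p = 0.0372) or without knockdown library 2 (adjusted p = 0.0328), and in limma on quantile-normalized FPKM at -0.29 (adjusted p = 0.0210). The lncRNA *Gm15533* lies on the opposite strand and overlaps *Trim72* by 1242 bases, with 358 to 737 counts against 11530 to 21728 for *Trim72*. Its log2 fold change was -0.19 (adjusted p = 0.467). Whether counting used the strand is not given in the sources used here, so reads of the overlap cannot be assigned.

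*Ehd2* (ENSMUSG00000074364, chr7:15680883-15701492, minus strand) was at 56, 58.6, 59.5, 55.5 and 58.5 FPKM in si-Control and at 51.1, 51.8, 52.7, 53.6 and 54.4 FPKM in si-*Fndc1*. The libraries of each group were close together and the groups did not overlap. The fall was small, at -0.12 on the log2 scale (SE 0.03, adjusted p = 0.0108).

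*Anxa2*, which caps lesions in a complex with S100A10 (ENSMUSG00000032231, chr9:69360902-69399077, plus strand), was the member whose change passed the test in all 22 alternative settings, with log2 fold changes of 0.11 to 0.30. It was at 113, 128, 118, 109.7 and 116 FPKM in si-Control and at 135, 129, 135, 139.6 and 148 FPKM in si-*Fndc1*. Control library 2 was the highest control and knockdown library 2 the lowest knockdown, yet the groups stayed apart by 1.16 FPKM. The mean rose from 117 ± 6.91 to 137 ± 6.91 FPKM (SD, n = 5; exact permutation test, two-sided, p = 0.00794, the smallest that 5 against 5 libraries allow), and the log2 fold change was 0.24 (SE 0.05, adjusted p = 0.00271).

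*Anxa1* (ENSMUSG00000024659, chr19:20350792-20368308, minus strand), the annexin of anti-inflammatory signalling that also joins the repair cap, was at 101, 122, 109.8, 99.7 and 107 FPKM in si-Control. In si-*Fndc1* it was at 113, 109, 118, 120.0 and 131 FPKM. Control library 2 exceeded all but knockdown library 5, and the groups overlapped widely. The log2 fold change of 0.14 (SE 0.06, 95% interval 0.00 to 0.28) did not pass the test (adjusted p = 0.108), but it passed without control library 2 (adjusted p = 0.0222).

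*Anxa6* (ENSMUSG00000018340, chr11:54869934-54924271, minus strand), whose shortened form modifies muscular dystrophy in mice, was the most abundant member. Its values were 221, 206, 214, 213 and 208 FPKM in si-Control and 206, 212, 207, 199.5 and 202 FPKM in si-*Fndc1*. The ranges overlapped, and the log2 fold change of -0.04 (SE 0.03, 95% interval -0.11 to 0.03) did not pass the test (adjusted p = 0.321), but in limma on quantile-normalized FPKM it was -0.16 and passed (adjusted p = 0.0158). Within the sum of the 3 annexins, *Anxa2* held between 25.9% and 28.0% in the control libraries and between 28.6% and 30.8% in the knockdown libraries, without overlap. The shares of *Anxa1* and *Anxa6* overlapped between the groups, at 24.6% ± 1.38 against 25.6% ± 1.13 and 48.6% ± 2.23 against 44.6% ± 1.93.

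On the FPKM scale, *Myof*, *Ehd2* and *Anxa2* were the members whose groups did not overlap, 3 of 10 beside 25.1% of all tested genes. By level, the members in si-Control ran from *Anxa6* through *Anxa2*, *Anxa1*, *Trim72*, *Ehd2*, *Cav3* and *Myof* to *Dysf*, *Cav1* and *Cav2*. The ranges of *Anxa2*, *Anxa1* and *Trim72* overlapped between neighbours, as did those of *Dysf* and *Cav1*, so these were not separated. In si-*Fndc1* the order was the same down to *Myof*, and *Cav1*, *Dysf* and *Cav2* then followed with overlapping ranges between neighbours.

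**Figure D2:**
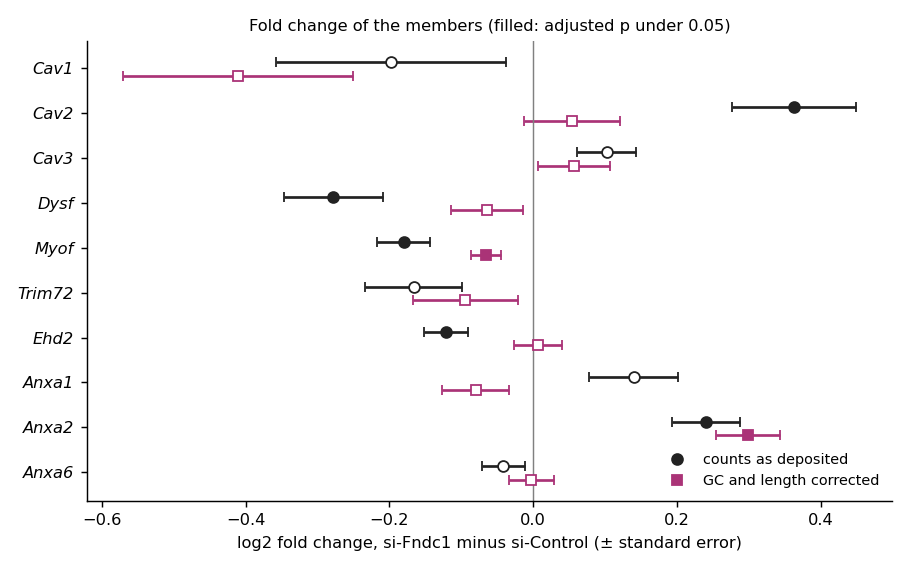
Log2 fold change of each member, si-*Fndc1* minus si-Control, with its standard error (horizontal axis), from the counts as deposited (black circles) and after correction for GC content and length (purple squares), filled where the adjusted p is under 0.05. Filled black circles mark *Cav2*, *Dysf*, *Myof*, *Ehd2* and *Anxa2*, and filled purple squares mark *Myof* and *Anxa2* alone.

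Changes over all tested genes tended to follow the base composition of their transcripts. Across 11185 tested genes with a known GC content, Spearman's rho between the log2 fold change and GC content was -0.523 (across genes, which are not independent replicates). The median log2 fold change was 0.23 for genes under 40% GC and -0.17 for genes of at least 55% GC. *Cav2*, at 37.5% GC, lies in the class with the highest median, and *Dysf*, *Trim72* and *Cav3*, at 55.6%, 57.5% and 56.7%, lie in the class with the lowest. *Anxa2*, at 53.1%, rose by 0.24 where the median of its class was -0.06. *Myof*, at 48.9%, was at -0.18 where the median of its class was 0.04. *Cav1*, *Dysf* and *Ehd2* also lay below the median of their class by more than their standard error.

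**Figure D3:**
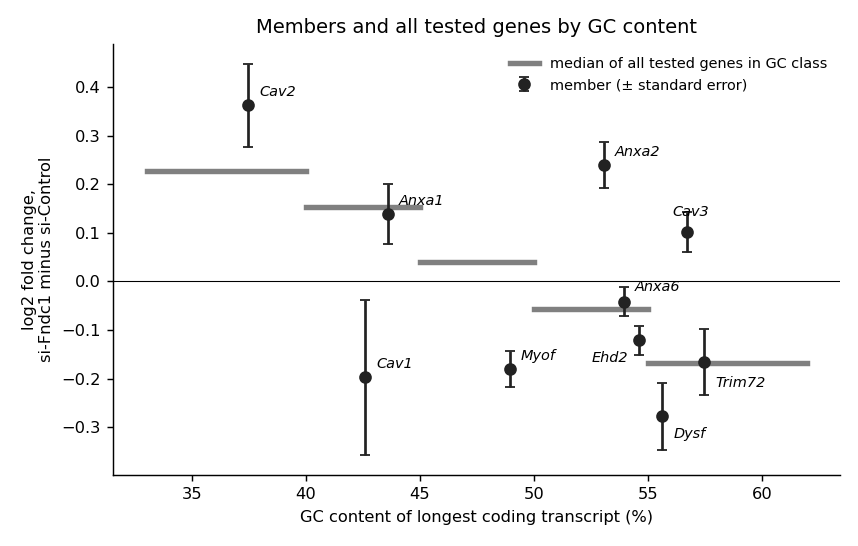
Log2 fold change of the 10 members, si-*Fndc1* minus si-Control, with the standard error (vertical axis) against the GC content of the longest coding transcript in percent (horizontal axis), and grey bars for the median of all tested genes in each GC class. The medians step down from 0.23 to -0.17. *Cav2*, *Cav3* and *Anxa2* sit above the median of their class by more than their standard error, and *Cav1*, *Dysf*, *Myof* and *Ehd2* sit below it by more than theirs.

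After a correction of every library for its trend with GC content and length, 22.7% of the 11185 genes were called and 2 of the 10 members. This step, called the GC correction in this text, fits GC content and length together. The part of each in the shift of a gene was not tested. *Anxa2* was higher by 0.30 on the log2 scale (SE 0.04, adjusted p = 0.000912) and *Myof* was lower, at -0.07 (SE 0.02, adjusted p = 0.0471), though not once replicate number was also modelled (adjusted p = 0.150). The other members called before lost their call, with log2 fold changes of 0.05 for *Cav2* (adjusted p = 0.610), -0.06 for *Dysf* (adjusted p = 0.403) and 0.01 for *Ehd2* (adjusted p = 0.913). *Cav1* moved to -0.41 (SE 0.16, adjusted p = 0.0900) and *Cav3* to 0.06 (SE 0.05, adjusted p = 0.462). *Trim72* moved to -0.09 (SE 0.07, adjusted p = 0.395). The targeted gene *Fndc1* was still lower, at -0.22 (adjusted p = 0.0104). Whether the trend with GC content arose in the libraries or in the cells cannot be told apart here, since the 5 libraries of each group lie on 1 side of it. The median difference between genes under 45% and genes of at least 55% GC, from the mean of all libraries, lay between -0.21 and -0.14 on the log2 scale in si-Control and between 0.13 and 0.23 in si-*Fndc1*.

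Within each group several members varied from library to library in a shared pattern, chosen for description after the values were seen. Deviations of log2 CPM from the group mean were compared over the 10 libraries for all 45 pairs of members, with exact permutation tests of the pairings within groups and Benjamini-Hochberg adjustment over the 45. In 14 pairs both Pearson's r and Spearman's rho had an adjusted p under 0.05, and 7 of these were positive and 7 negative. The share of such pairs among all tested genes was not computed, so 14 of 45 cannot be read as particular to the members. *Anxa1* and *Anxa2* deviated together most closely (r = 0.987, rho = 0.988, exact permutation p = 6.94e-05 for both, the smallest the pairings allow, adjusted p = 0.00312). Without the 2 libraries farthest from the median of *Anxa1* the r was 0.956. The pairs of *Cav2* that passed in both, with *Dysf*, *Anxa1* and *Anxa2*, rested more on single libraries. Without the 2 libraries farthest from the median of *Cav2* their r went from -0.885 to -0.531, from 0.868 to 0.528 and from 0.850 to 0.472.

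*Dysf* and *Trim72*, both best known from striated muscle, also deviated together (r = 0.936, exact permutation p = 0.000625, adjusted p = 0.00469; rho = 0.891, exact permutation p = 0.00319, adjusted p = 0.0131). They moved against *Anxa1* and *Anxa2*. *Anxa6* deviated with *Trim72* (r = 0.780 and rho = 0.794, exact permutation p = 0.0125 and 0.0146, adjusted p = 0.0402 and 0.0430, with r = 0.721 without the 2 libraries farthest from the median of *Trim72*). The pair of *Anxa6* with *Dysf* did not pass (r = 0.744 and rho = 0.758, exact permutation p = 0.0283 and 0.0261, adjusted p = 0.0743 and 0.0512). For *Dysf* and *Anxa2* r was -0.964 and rho -0.939 (exact permutation p = 0.000139 and 0.000764, adjusted p = 0.00312 and 0.00677). Without the 2 libraries farthest from the median of *Dysf* the r was 0.831 with *Trim72* and -0.890 with *Anxa2*. After the GC correction these were r = 0.921 and r = -0.967 over all 10 libraries. The pairs of *Myof* weakened, from -0.893 to -0.396 with *Anxa1*, from -0.874 to -0.400 with *Anxa2*, from 0.865 to 0.471 with *Dysf* and from 0.828 to 0.602 with *Trim72*.

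Control library 2 and knockdown library 5 lay at the same end of the pattern, with low *Dysf* and *Trim72* beside high *Anxa1*, *Anxa2* and *Cav2* for their group. Knockdown library 5 also had the lowest total count of all libraries, 56332844, and a part of depth in the pattern was not tested. *Ehd2* sided with *Anxa1* and *Anxa2* within the groups (rho = 0.794 with *Anxa2*, exact permutation p = 0.0175, adjusted p = 0.0438, with r = 0.724, exact permutation p = 0.0299, adjusted p = 0.0743) although it fell with *Dysf* between them. No pair of *Cav3* passed in either coefficient, and no pair of *Cav1* or *Ehd2* passed in both.

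**Figure D4:**
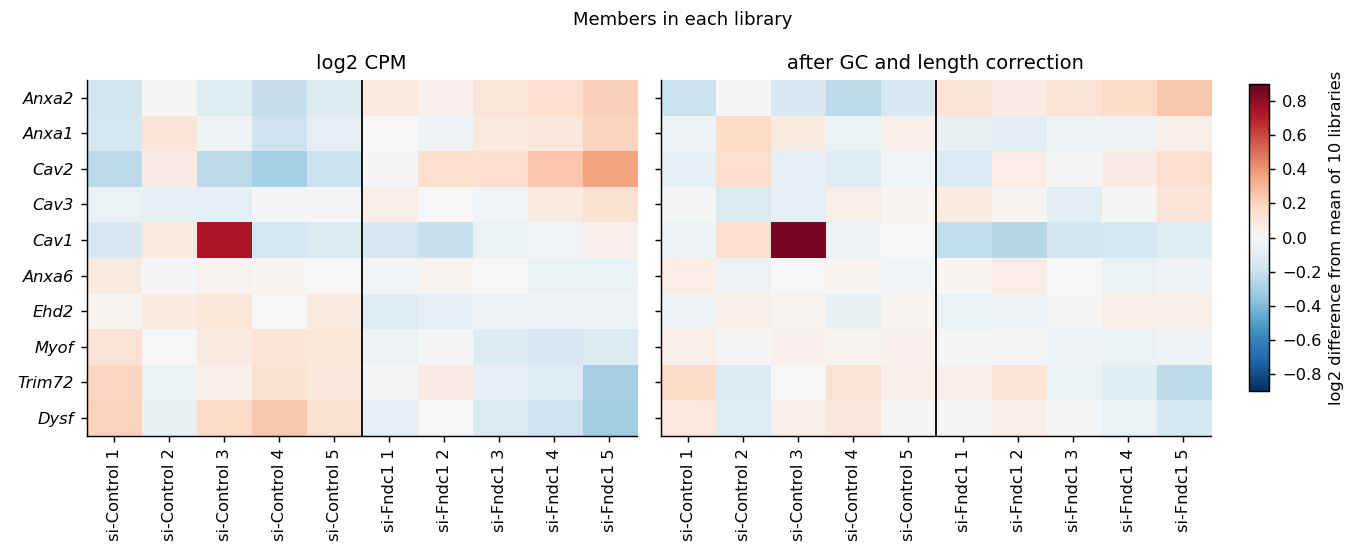
Log2 difference of each member (rows) from its mean over all 10 libraries, by library (columns, si-Control left and si-*Fndc1* right of the black line), as log2 CPM (left) and after GC and length correction (right), red for higher and blue for lower. *Dysf* and *Trim72* are lowest in si-*Fndc1* 5, where *Anxa1*, *Anxa2* and *Cav2* are highest on the left, and *Cav1* is far above its mean in si-Control 3.

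The same deviations were set beside those of 3 differentiation genes, 30 pairs in all. *Myh3*, embryonic myosin heavy chain, followed *Trim72* (r = 0.920, rho = 0.915, exact permutation p = 6.94e-05 and 0.000139, adjusted p = 0.00139 and 0.00417) and ran against *Anxa1* (r = -0.946, exact permutation p = 0.000139, adjusted p = 0.00139, with rho = -0.927, exact permutation p = 0.000556, adjusted p = 0.00556). Without the 2 farthest libraries these r were 0.880 and -0.939. In 10 of the 30 pairs both coefficients passed, 6 with *Myh3* and 4 with *Mymk*, the fusion protein myomaker. The remaining gene was *Myog*, the transcription factor myogenin. The share of all tested genes that would pass with these 3 genes was not computed.

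Between the groups, *Mymk* was higher in si-*Fndc1* by 0.26 (adjusted p = 0.0188), while *Myh3*, at -0.17 (adjusted p = 0.166), and *Myog*, at -0.12 (adjusted p = 0.137), did not pass. After the GC correction these calls turned, with *Mymk* at 0.20 (adjusted p = 0.116) and *Myog* lower, at -0.18 (adjusted p = 0.0217). Of 20 markers of differentiated myotubes 6 rose and 4 fell, with a median log2 fold change of -0.00. That is 50% called, beside 34.4% of all tested genes. After the GC correction 6 of these markers were higher and 3 lower, with a median of 0.07, beside 22.7% of all genes called in that fit. Of 12 markers of undifferentiated or cycling cells 4 rose and 8 did not pass, or 33.3% called, with a median of 0.12. After the GC correction 3 of the 12 were higher and 1 lower (*Myf5*, named after its value was seen, at -0.22), with a median of -0.04.

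The wider machinery was described by 4 lists of other genes, 67 in all, of which 59 were tested. In all, 16 rose and 11 fell, or 45.8% beside the 34.4% of all tested genes, with a median log2 fold change of 0.03. After the GC correction 15 of 57 were higher and 12 lower, beside 22.7% of the 11185 genes called in that fit in either direction.

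**Figure D5:**
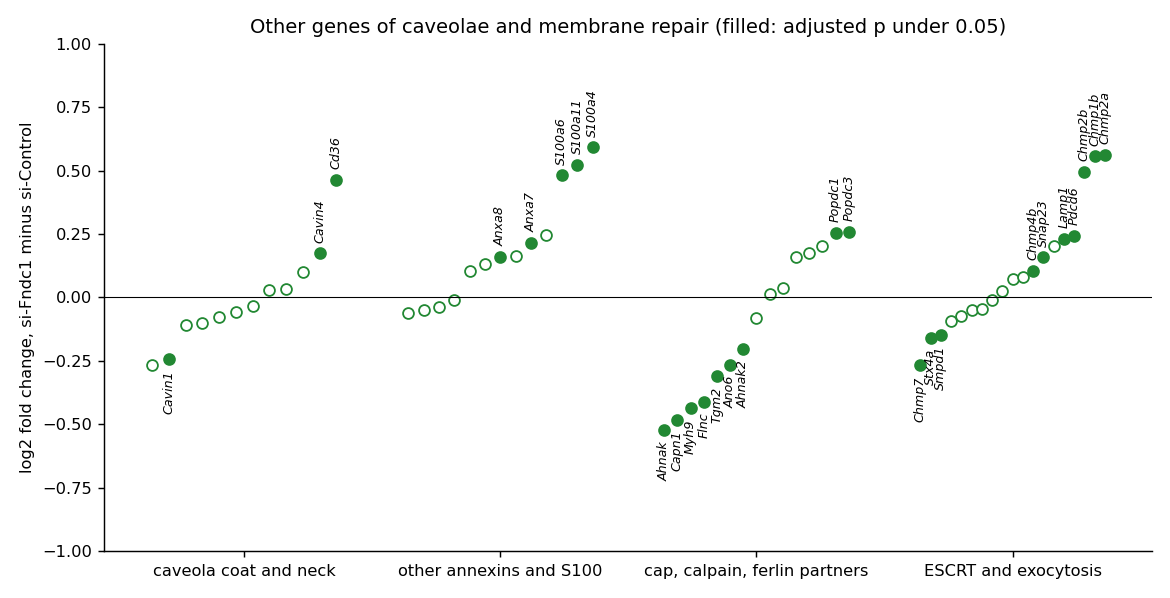
Log2 fold change, si-*Fndc1* minus si-Control (vertical axis), of the 59 tested genes of 4 lists of caveola and membrane repair genes (columns, genes in order of change), filled and named where the adjusted p is under 0.05. *S100a4* is the highest at 0.59 and *Ahnak* the lowest at -0.52. The *Chmp* genes point both ways, with *Chmp2a* at 0.56 and *Chmp7* at -0.27.

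Of the 12 genes of the caveola coat and neck, 2 rose, 1 fell and 9 did not pass. After the GC correction 2 were higher and 1 lower, but these were not the same genes. Besides *Cd36* they were *Ehd1*, higher at 0.14 (adjusted p = 0.0175), and *Cavin2*, lower at -0.16 (adjusted p = 0.00837), both named after their values were seen. *Cavin1*, the coat protein that caveolae require, fell from 126 ± 1.92 to 105 ± 3.38 FPKM (log2 fold change -0.24, SE 0.03, adjusted p = 0.000166), and after the GC correction it was at -0.08 (adjusted p = 0.0522). *Cavin4*, the cavin of muscle, rose by 0.17 (SE 0.04, adjusted p = 0.0108), but stood at -0.01 after the correction (adjusted p = 0.931). *Cd36*, a fatty acid transporter found in caveolae, rose from 7.40 ± 0.172 to 10.2 ± 0.538 FPKM, by 0.46 (SE 0.05, adjusted p = 4.96e-05), and by 0.19 after the correction (adjusted p = 0.00628).

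Of 13 tested annexin and S100 genes outside the members, 5 rose and 8 did not pass, with 2 of the 15 listed too low to test. After the GC correction 4 were higher and 3 lower, the latter being *Anxa4* (-0.13), *S100a1* (-0.22) and *S100a10*, of which the first 2 are named here after their values were seen. The largest rises were those of S100 calcium-binding proteins. *S100a4* rose from 1014 ± 74.1 to 1521 ± 114 FPKM (log2 fold change 0.59, SE 0.06, adjusted p = 6.69e-05), *S100a11*, a partner of annexin A1, rose by 0.52 (SE 0.04, adjusted p = 1.72e-05) and *S100a6* by 0.48 (SE 0.09, adjusted p = 0.00168). After the correction they were higher by 0.31, 0.24 and 0.39. *S100a10*, the partner of annexin A2, did not rise with it. Its level was 154 ± 17.1 FPKM in si-Control and 152 ± 8.64 FPKM in si-*Fndc1* (log2 fold change -0.01, 95% interval -0.17 to 0.15, adjusted p = 0.922), and after the correction it was lower, at -0.18 (adjusted p = 0.0218).

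Of 15 tested genes of the repair cap, calpains and ferlin partners, 2 rose and 7 fell, whereas after the GC correction 5 of 14 were higher and 4 lower. *Ahnak*, a giant scaffold that binds dysferlin and the annexin A2 complex, fell from 98.7 ± 3.46 to 68.3 ± 3.15 FPKM (log2 fold change -0.52, SE 0.04, adjusted p = 1.25e-05). It was still lower after the correction, at -0.36 on the log2 scale (adjusted p = 5.17e-05). *Myh9*, non-muscle myosin heavy chain, stood at -0.44 (SE 0.03, adjusted p = 1.72e-05) and at -0.12 after the correction. *Popdc3*, a Popeye domain protein of muscle membranes, rose by 0.26 (SE 0.03, adjusted p = 9.12e-05). *Capn3*, the muscle calpain whose loss causes a limb-girdle dystrophy, was at 0.16 (adjusted p = 0.0523) and at 0.18 after the correction, where it passed (adjusted p = 0.0439). *Bin1*, the T-tubule protein, was at 0.04 (adjusted p = 0.491) and at 0.24 after the correction (adjusted p = 0.000859).

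Of 19 tested genes of the ESCRT machinery and lysosome exocytosis, which pinch off and replace damaged membrane, 7 rose and 3 fell, whereas after the GC correction 4 of 18 were higher and 4 lower. The smallest p-values belonged to ESCRT-III subunits. *Chmp2b* rose from 22.5 ± 1.33 to 31.6 ± 1.09 FPKM (log2 fold change 0.49, SE 0.05, adjusted p = 3.87e-05), *Chmp1b* by 0.56 (SE 0.06, adjusted p = 0.0001) and *Chmp2a* by 0.56 (SE 0.07, adjusted p = 0.000137). After the correction *Chmp2b* was higher by 0.18 and *Chmp2a* by 0.42, and *Chmp1b* had no GC content to correct for. The *Chmp* genes did not rise as a family, and those that follow are named after their values were seen. *Chmp4b* was at 0.10 (adjusted p = 0.00782) and *Chmp7* at -0.27 (adjusted p = 0.000176). *Chmp1a*, *Chmp3*, *Chmp4c*, *Chmp5* and *Chmp6* did not pass. The correction put *Chmp5* lower, at -0.26 (adjusted p = 0.000128), and *Tsg101*, another ESCRT gene, at -0.32 (adjusted p = 0.00154).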

How the data were processed

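RNA-sequencing of 10 C2C12 libraries was analysed, 5 si-Control and 5 si-*Fndc1*, grouped and numbered by their labels, with 0 value columns left without a sample. The authors deposited unnormalized read counts for 55359 genes. The authors also deposited FPKM values, listed as 0.0001 where no read was counted. TopHat, mm10 and htseq-count are named in the study's methods, and STAR and mm9 in the design text of the series, while the submitters' processing notes list cutadapt 1.9, FastQC and GRCm39. The table names no build, and its coordinates are given as listed. The strand setting of the counting is not given in the sources used here. The methods name 4 libraries without saying which, so all 10 were used. No library repeated another of its group, since the smallest ratio of chi-square to degrees of freedom over the 20 pairs was 36.1.

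Genes with a mean of at least 0.5 FPKM were tested in R 4.3.3 by the quasi-likelihood method of edgeR 4.0.16 after TMM scaling, with Benjamini-Hochberg adjustment over the 13548 tested genes, and single levels by two-sided exact permutation tests on FPKM. The GC correction used the 11185 tested genes (82.6%) for which count and FPKM imply a length and NCBIM37 transcripts give a GC content. It fitted the log count (0.5 added) of each library on both with splines of 5 degrees of freedom and entered the fit as an offset. DESeq2 1.42.0, limma 3.58.1 and other scalings and filters were alternatives. Python 3.11.15, numpy 2.4.6, pandas 2.3.3 and scipy 1.17.1 were used, and the fits were tested on simulated data.

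The members and gene lists were chosen with earlier results of these data known. The text names all members, *Fndc1*, the 3 genes with the smallest p-value of each list, *Cavin1*, *Cavin4*, *S100a10*, *Capn3*, *Bin1*, *Myog*, *Mymk*, *Myh3* and *Alb*, the 3 genes most like *Cav1* and *Cav3*, and overlapping genes. Within-group correlations were added after the data were seen. Proteins were not analysed here.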

Additional observations from a re-analysis of the deposited data

Results flagged for a closer look

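Among 66 groups of 5 libraries, 4 had a lowest or highest value whose gap to the nearest other value exceeded Dixon's critical share of the range, 0.71 for 5 libraries, and chance would flag about 1 group in 20. *Cav1* was at 16.7 FPKM in si-Control library 3, where the next highest control was 10.7 FPKM. *Cav2* was at 8.40 FPKM in si-Control library 2, above the next highest control of 6.96 FPKM. *Chmp2a* was at 31.7 FPKM in si-Control library 5, below the next lowest control of 35.4 FPKM. *Gm15533*, the lncRNA that overlaps *Trim72*, was at 2.75 FPKM in si-*Fndc1* library 2, above the next highest knockdown library at 1.74 FPKM. What set these values apart was not tested.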

How the results depend on the processing

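Of 220 comparisons of a member's fold change with its value under an alternative, 205 kept direction and side of the threshold, 5 lost the call with the same sign, 5 gained it and 5 changed sign (2 of these, for *Ehd2*, also lost the call). The GC and length correction left 2 members called (1 higher, 1 lower) and 2537 genes (1259 higher, 1278 lower). The replicate numbers did not pair the libraries. Deviations of log2 CPM from the group mean correlated at only -0.0553 to 0.0643 between same-numbered libraries of the groups. With the replicate block 5 members and 3572 genes were called. With the correction and the block together edgeR called 1 member, 1 higher and 0 lower (2 lower at an unadjusted p under 0.05, and 3 lower by DESeq2 without either), and 1645 genes (833 higher, 812 lower), and 15 genes of the lists against 27. Quantile-normalized FPKM in limma gave 5 members lower.

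Leaving out 1 library at a time gave 5 to 7 members (2 to 3 higher, 3 to 4 lower), 4000 to 4627 genes (2022 to 2321 higher, 1978 to 2321 lower), 26 to 28 genes of the lists and 8 to 10 myotube markers. The log2 fold change of *Cav1* then ran from -0.259 to 0.00579, above 0 only without si-Control replicate 3, and that of *S100a10* from -0.0503 to 0.0562, above 0 without si-Control replicate 2 or si-*Fndc1* replicate 2. *Bin1* turned to -0.0815 under quantile normalization. The correction turned *Ehd2* (0.00658, and 0.00653 with the block), *Anxa1* (-0.0804 and -0.0787) and *Cavin4* (-0.00802 and -0.00723). The cause was not tested. Each member had at least 1725 counts in each library.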
